A study of Mus musculus with 4 samples.

Results

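The suppressors of cytokine signalling (SOCS) are a family of 8 genes in mouse, Cish and Socs1 to Socs7. All 8 were found by gene name among the 38697 genes of the authors' comparison of KO with WT lung ILC2s, and all 8 had an adjusted p. ILC2s are group 2 innate lymphoid cells, lymphocytes resident in tissues that secrete IL-5 and IL-13. The KO mice carried R5 on 1 allele and a floxed Nrp1 on both (R5/+Nrp1f/f), and the WT mice carried R5 alone (R5/+). As background, R5 is an Il5 reporter allele that also drives Cre recombinase, so deletion is limited to cells that have switched on Il5 and both genotypes carry 1 modified Il5 allele. All mice were C57BL/6 and had received bleomycin, a drug that injures the lung, so no uninjured lung enters the comparison. There were 2 KO and 2 WT samples, each a pool of ILC2s sorted from 3 to 4 mice, and nothing in the labels gives the age of the mice or a batch. Values per sample, depth per library and the spread between pools were not analysed here.

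SOCS proteins are negative feedback regulators of cytokine receptors. Cytokine binding activates Janus kinases (JAKs), which phosphorylate STAT transcription factors, and STATs in turn induce several SOCS genes. Each SOCS protein has an SH2 domain that binds phosphotyrosine and a SOCS box that recruits elongins B and C and a cullin to form a ubiquitin ligase. SOCS1 and SOCS3 also inhibit JAK kinase activity directly. In ILC2s and T helper cells, IL-2, IL-7 and TSLP signal mainly through STAT5, a strong inducer of Cish and Socs2, while IL-4 and IL-13 use STAT6, and IL-6 and IL-10 use STAT3.

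The start regions of Cish, Socs3 and Socs1 are shown because they hold matches to the binding motifs of the STAT and interferon regulatory factor (IRF) families, through which these genes are known to be induced. Of the 8 members, 4 (Cish, Socs1, Socs3 and Socs4) had an entry in the RefSeq promoter table (GRCm38.p6, the same assembly as mm10), which covers 250 bases before and 50 after the RefSeq start. The letters run 5′ to 3′ on the strand of the gene, and capitals mark the STAT motif TTCNNNGAA, which reads the same on both strands, or the IRF motif GAAANNGAAA, searched on both strands.
Cish, chr9:107296654-107296683, + strand, positions -5 to 25: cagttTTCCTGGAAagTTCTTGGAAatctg
Socs3, chr11:117969367-117969616, - strand, positions -250 to -1: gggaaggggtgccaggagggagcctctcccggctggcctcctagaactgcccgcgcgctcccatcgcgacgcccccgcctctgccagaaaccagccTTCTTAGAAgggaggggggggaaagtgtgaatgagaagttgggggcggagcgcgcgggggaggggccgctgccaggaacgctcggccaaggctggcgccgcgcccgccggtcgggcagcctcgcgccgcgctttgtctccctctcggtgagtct
Socs1, chr16:10785537-10785786, - strand, positions -250 to -1: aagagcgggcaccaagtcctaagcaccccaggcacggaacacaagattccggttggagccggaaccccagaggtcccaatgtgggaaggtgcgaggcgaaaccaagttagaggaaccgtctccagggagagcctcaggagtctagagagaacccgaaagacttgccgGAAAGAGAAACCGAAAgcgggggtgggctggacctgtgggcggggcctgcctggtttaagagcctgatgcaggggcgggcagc

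Cish held 2 matches to the STAT motif, at positions 1 to 9 and 12 to 20 counted from the RefSeq start. Socs3 held 1, at positions -154 to -146. The motif was present in 8.30% of all 32851 promoter windows of this length, and 0.457% held at least 2 matches. Socs1 held no STAT motif in its window but 2 overlapping IRF motifs, at -83 to -74 and -77 to -68, a motif present in 3.44% of all windows and chosen after the sequence had been seen. Socs4 held neither motif in its window. A match is a description of the letters and not a measured binding site. The annotated starts also differ between sources, since the RefSeq start lies 633 bases inside the GENCODE gene for Cish and 681 bases inside it for Socs3, while that of Socs1 is the same in both.

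**Figure D1:**
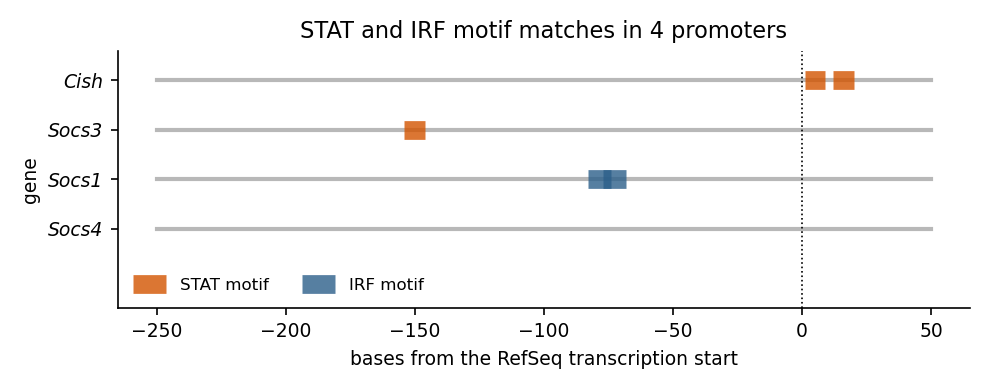
Positions of STAT motif and IRF motif matches in the 300-base windows of 4 SOCS genes, in bases from the RefSeq start (dotted line). The 2 STAT motifs of Cish lie just after the start, that of Socs3 and the 2 overlapping IRF motifs of Socs1 lie before it, and Socs4 has none.

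The members lie on 7 chromosomes in mm10, with Socs3 and Socs7 both on chromosome 11. Cish spans chromosome 9, 107296026 to 107302784, Socs1 chromosome 16, 10782240 to 10785536, Socs2 chromosome 10, 95385362 to 95417180, and Socs3 chromosome 11, 117966079 to 117970047. Socs4 spans chromosome 14, 47276931 to 47296102, Socs5 chromosome 17, 87107679 to 87137839, Socs6 chromosome 18, 88665224 to 88927481, and Socs7 chromosome 11, 97362551 to 97398542. The coding sequence of Socs1, Socs3, Socs4, Socs5 and Socs6 lies in 1 exon in GENCODE M21, against 2 coding exons in Socs2, 3 in Cish and 9 in Socs7. Exons of Cish overlap 2 annotated genes on the opposite strand by up to 479 bases, and with kits that are not described as marking strand, reads there cannot be assigned with certainty. One of them, the pseudogene Gm17040, is listed by the authors' deposited table at a baseMean of 7.60. The exons of the other 7 members overlap no other annotated gene.

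Cish, the first family member to be described and an inhibitor of STAT5 signalling, was the most abundant SOCS transcript of these ILC2s. Its baseMean, the mean normalized count over the libraries, was 8169 by the authors' deposited table, above 98.8% of the 19193 genes with an adjusted p. Per kilobase of exon, Cish stood at 1273 normalized counts, followed by Socs3 at 523, Socs1 at 251 and Socs2 at 208. The other 4 members were lower on the same scale, with Socs5 at 64.7, Socs4 at 57.8, Socs6 at 35.0 and Socs7 at 15.2 normalized counts per kilobase. Cish thus made up 52.4% of the family's summed level per kilobase and Socs3 21.6%. The level per kilobase of Cish was 83.6 times that of Socs7 and 2.43 times that of Socs3. The spread of these levels over libraries was not analysed, so whether close neighbours such as Socs1 and Socs2 (a ratio of 1.21) or Socs5 and Socs4 (1.12) differ is not known. With the longest transcript in place of all exons as the length, Socs2 came before Socs1 and Socs6 before Socs4.

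**Figure D2:**
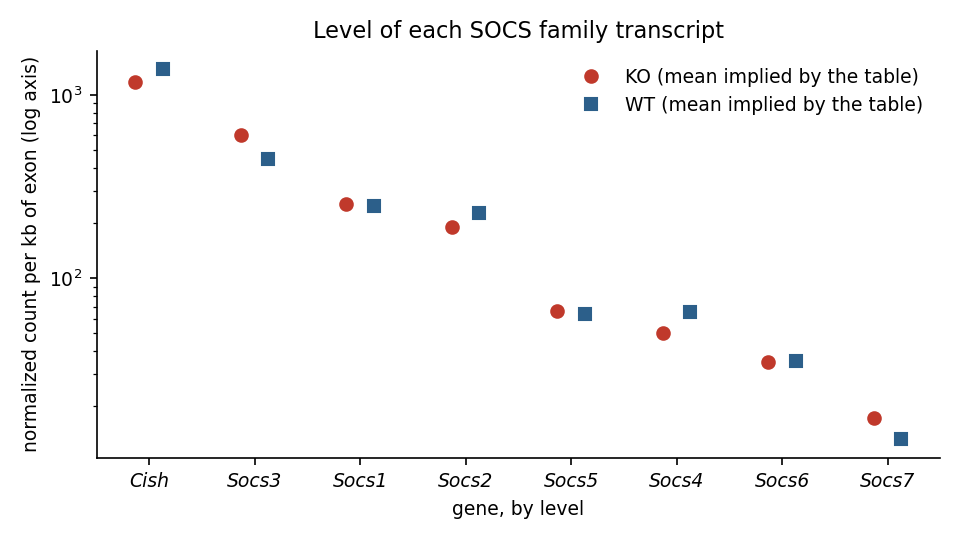
Level of each SOCS transcript in KO (circles) and WT (squares), in normalized counts per kilobase of exon on a log axis, as means implied by the authors' baseMean and fold change, without error bars because values per library were not used. Cish is highest at 1167 in KO and 1378 in WT, and Socs7 lowest at 17.2 in KO and 13.2 in WT.

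None of the 8 SOCS genes passed the authors' test between KO and WT at an adjusted p under 0.05. Over all 19193 genes 0.552% passed in either direction, 0.453% as higher in KO. Socs3 had the highest log2 value and the lowest p of the family, and Socs4 the lowest log2 value. Adjusted p ran between 0.275 for Socs3 and 0.990 for Socs6 in the authors' deposited table. At an unadjusted p under 0.05, 1 of 8 members passed, Socs3, against 13.6% of all tested genes in either direction and 9.62% as higher in KO. By sign the family was split, 4 members above 0 and 4 below, with a median log2 fold change of 0.01 beside 0.08 over all tested genes. These signs are read against a fold change that depends on abundance: of 2480 abundant genes, those whose baseMean was 1000 or more, 7.10% had a positive log2 value, and their median was -0.25. Values of the members and medians of the lists centred on that median are therefore also given. Only 3 of the 8 members were themselves that abundant, so for the others this reference comes from more abundant genes. The sign was turned so that positive means higher in KO, because the table's name puts WT first. For Nrp1 itself the authors' deposited table gave, with the sign so turned, -1.18 ± 0.21 (SE, adjusted p = 1.27e-04), which does not go against that reading.

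Socs3 encodes the inhibitor of receptors that contain gp130, such as the IL-6 receptor, and of JAK1 and JAK2. The deposited values imply means of 1738 normalized counts in KO and 1288 in WT. The log2 fold change was 0.43 ± 0.19 (SE) in the authors' deposited table, with an unadjusted p of 0.0252 and an adjusted p of 0.275, so the call was not made. As a ratio this was 1.35-fold, with a 95% interval of 1.04 to 1.75. Socs3 was the 1 member whose interval did not span 0 on the log2 scale. Its log2 value lay above those of 61.9% of all tested genes and of 98.8% of the 2480 abundant genes. Centred on the abundant genes, the log2 value of Socs3 was 0.68 (95% interval 0.31 to 1.06). It then passed with an adjusted p of 0.0414 (Wald test on the authors' standard errors, Benjamini-Hochberg adjustment over 19193 genes). Under that centring 1.18% of all tested genes were called, 1.17% as higher in KO and 0.0104% as lower. Whether Socs3 is called thus depends on the centring.

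Markers of other lung cells, which can also express Socs3, had positive values in the same comparison. All 6 fibroblast, all 6 lung epithelial, 5 of 6 endothelial and all 7 tested macrophage and monocyte markers had positive log2 values, with medians of 0.74, 0.67, 0.42 and 0.48, and none passed. Centring raised these medians to 0.99, 0.92, 0.67 and 0.73. Summed over each list, the implied levels were 6721 normalized counts in KO and 3868 in WT for fibroblasts, 12827 in KO and 7354 in WT for lung epithelium, and 3209 in KO and 2553 in WT for endothelium. The macrophage and monocyte sum, most of it Lyz2, was 10040 in KO and 8889 in WT. The error of single markers varied in the authors' deposited table. It was wide for Col1a1 at 0.99 ± 1.31 (SE) and smaller for Lyz2 at 0.14 ± 0.20 and Pecam1 at 0.26 ± 0.23. At an unadjusted p under 0.05, 1 of 7 macrophage and monocyte, 1 of 6 lung epithelial, 1 of 6 endothelial and 0 of 6 fibroblast markers were higher in KO. None of them was lower, and of all tested genes 9.62% were higher. No marker of these lists was at 0, while Itgam, a macrophage marker, was too low for an adjusted p. Their part in the value of Socs3 was not tested. In a pooled population, more cells of a type and more RNA per cell cannot be told apart. The defining markers of ILC2s were abundant: the authors' deposited table gives Gata3, the lineage transcription factor, a baseMean of 39152 and Il1rl1, the IL-33 receptor, 12090. All 15 ILC2 markers had negative log2 values (median -0.33), 6 of 15 were positive after centring (median -0.08), and none passed on either scale. The median baseMean of the ILC2 markers was 9649, within the range of the abundant genes, of which 7.10% were positive as deposited. T cell markers were positive in 1 of 9 cases, B and plasma cell markers in 5 of 7 and neutrophil markers in 1 of 5. The authors' deposited table lists Trbc1, a T cell receptor chain, at a baseMean of 2938, and the CD3 chain Cd3g, at -0.96 ± 0.24 (SE, adjusted p = 0.0292), was the 1 marker gene past the test. That call ended after centring (-0.71, adjusted p = 0.103) and with every gene adjusted for (0.0588). Centred, 3 of 9 T cell, 6 of 7 B and plasma cell and 3 of 5 neutrophil markers were positive.

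**Figure D3:**
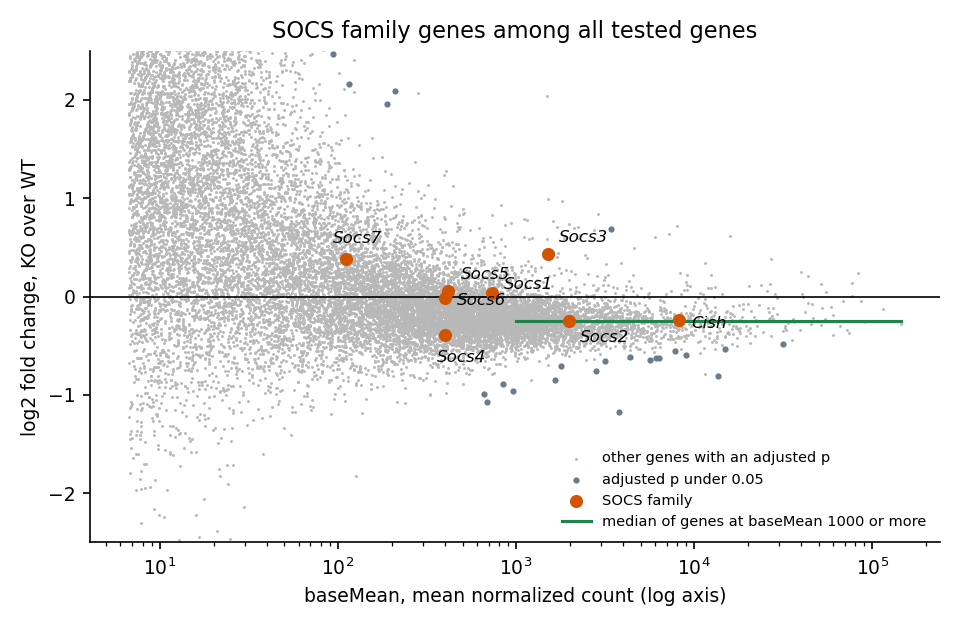
Log2 fold change, KO over WT, against baseMean on a log axis for the 19193 genes with an adjusted p, with SOCS genes in orange, called genes in dark grey and the median of the 2480 most abundant genes (baseMean 1000 or more) as a green line. Cish and Socs2 lie on the line at -0.25 and Socs3 stands above it at 0.43, while 2377 genes beyond 2.5 on either side are not drawn.

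Cish and Socs2 are the STAT5-induced members. Socs2 limits growth hormone signalling and, in mouse T helper cells, type 2 differentiation, and Cish limits STAT5 activation by IL-2 and, in mouse ILC2s, their activity. Cish had implied means of 7493 normalized counts in KO and 8845 in WT, a log2 fold change of -0.24 ± 0.16 (SE) in the authors' deposited table (adjusted p = 0.532). Socs2 had implied means of 1812 normalized counts in KO and 2157 in WT, a log2 fold change of -0.25 ± 0.23 (SE) in the authors' deposited table (adjusted p = 0.685). Both values lay near the middle of the abundant genes, Cish being above 53.8% of those 2480 genes and Socs2 at their median. Centred on those genes, Cish turned to 0.01 and Socs2 to 6.72e-05, with 95% intervals of -0.30 to 0.33 and -0.46 to 0.46. For Cish the deposited interval allows a ratio of KO to WT between 0.681 and 1.05, and for Socs2 between 0.611 and 1.16. Cish had the smallest error of the family, and a log2 difference of 0.59 would have been needed for a call.

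Socs1, the inhibitor of interferon-gamma and IL-4 receptor signalling, had nearly equal values in both genotypes. Its implied means were 741 normalized counts in KO and 721 in WT, and its log2 fold change was 0.04 ± 0.23 (SE) in the authors' deposited table (adjusted p = 0.965). The 95% interval of the ratio ran between 0.750 and 1.41. Centred on abundant genes, Socs1 stood at 0.29 (95% interval -0.16 to 0.74), although its own baseMean of 731 is below theirs.

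Socs4 to Socs7 are the members with long N-terminal regions. Socs4 and Socs5 have been linked to epidermal growth factor receptor turnover, and Socs6 and Socs7 to signalling through receptor tyrosine kinases and the insulin pathway. Socs4 had implied means of 344 normalized counts in KO and 451 in WT, with a log2 fold change of -0.39 ± 0.32 (SE) in the authors' deposited table (adjusted p = 0.618). Socs5 had 423 normalized counts in KO and 407 in WT by the same derivation, and a log2 fold change of 0.05 ± 0.31 (SE) in the authors' deposited table (adjusted p = 0.963). Both intervals span 0. Socs6 had implied means of 395 normalized counts in KO and 400 in WT, with a log2 fold change of -0.02 ± 0.29 (SE) in the authors' deposited table (adjusted p = 0.990). Socs7, the least abundant member, had implied means of 125 normalized counts in KO and 96.1 in WT, with a log2 fold change of 0.38 ± 0.52 (SE) in the authors' deposited table (adjusted p = 0.803). The error was smallest for Cish and widest for Socs7. A call would have needed a change of 1.63-fold for Socs3 and 1.79-fold for Socs1, but 2.22-fold for Socs4 and 3.74-fold for Socs7, all under the authors' own scaling and adjustment. Centred on abundant genes, 7 of 8 members were positive, with Socs4 at -0.14 as the exception, and Cish, Socs2 and Socs6 changed sign. Only Cish, Socs2 and Socs3 belong to those genes, so the signs of the others depend on a reference of unlike abundance. The centred family median of 0.26 stood beside 0.33 over all tested genes.

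**Figure D4:**
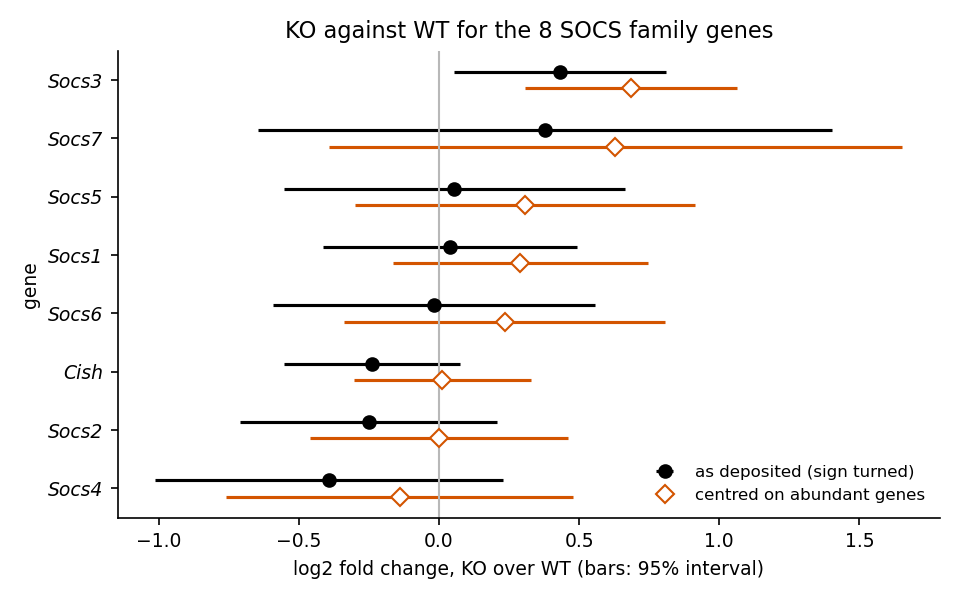
Log2 fold change of the 8 SOCS genes, KO over WT, as deposited with the sign turned (black circles) and centred on the 2480 abundant genes (open orange diamonds), bars being 95% intervals from the authors' standard errors. Socs3 at 0.43 is the 1 gene whose deposited interval does not span 0.

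Among themselves, the members' log2 values spanned 0.82, between Socs3 and Socs4. Socs3 lay 0.67 above Cish and 0.39 above Socs1, the other direct inhibitor of JAKs. These differences are given without a test, because the genes share the same libraries and their errors are not independent. Of the family's summed level per kilobase, Socs3 made up 25.2% in KO and 18.0% in WT, and Cish 49.0% in KO and 55.7% in WT, by the implied means. The summed level itself was 2381 normalized counts per kilobase in KO and 2475 in WT.

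The 3′ untranslated regions of the members differ in AU-rich pentamers (ATTTA), an element of short-lived cytokine and feedback transcripts. By main coding transcript in GENCODE M21, Socs4 held 17 in 5182 bases, Socs6 10 in 4019, Socs7 5 in 5184, Socs3 4 in 1474, Socs5 4 in 2595, Cish 3 in 1087, Socs2 2 in 1163 and Socs1 0 in 1993. Socs3 and Cish thus had a like density, 2.71 and 2.76 per kilobase, reached by 24.3% and 23.7% of tested protein-coding genes, beside a median of 1.31. The density was highest in Socs4 at 3.28 per kilobase, reached by 17.6% of tested protein-coding genes, and Socs1 had none. A relation of this density to the log2 values was not tested.

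The kinases and STATs on which SOCS proteins act had lower values in KO without any call. All 10 STAT and JAK genes given here had negative log2 values, with a median of -0.39 and 0 of 10 past the adjusted threshold, beside 0.099% of all tested genes called lower. At an unadjusted p under 0.05, 7 of 10 were lower, against 3.95% of all tested genes. Most tested genes are scarcer than these 10, whose median baseMean was 2164, and the share among abundant genes was not computed. Of the 2480 abundant genes, 7.10% had a positive log2 value. Stat6, the effector of IL-4 and IL-13, stood at -0.42 ± 0.15 (SE, adjusted p = 0.147), Jak1 at -0.41 ± 0.15 (0.175) and Stat3 at -0.37 ± 0.16 (0.256) in the authors' deposited table. Centred on abundant genes, the median was -0.14 and 0 of 10 passed. The SOCS box partners likewise had 10 of 10 negative values, with a median of -0.24 beside -0.25 over abundant genes, and none past the test at either threshold. After centring 6 of these 10 were positive, with a median of 0.008. Those of lowest p were the cullin Cul2 at -0.32 ± 0.20 (SE, adjusted p = 0.479), the ligase Arih2 at -0.29 ± 0.19 (0.529) and elongin B (Tceb2) at -0.29 ± 0.22 (0.594) in the authors' deposited table. The other cullin of the list, Cul5, stood at -0.08 and Rnf7 at -0.04.

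Of 36 receptors listed as possible targets of SOCS proteins, 1 fell and 0 rose past the test. Over all tested genes, 0.099% were called lower and 0.453% higher. The receptor gene that fell was Il10ra, a chain of the IL-10 receptor, which signals through STAT3, at -0.56 ± 0.15 (SE, adjusted p = 0.0423) in the authors' deposited table. Its call was lost when the values were centred (-0.31, adjusted p = 0.332). The call was also lost with every gene adjusted for (0.0852) and with genes whose baseMean reached 50 (0.0504). Among protein-coding genes it held (0.0497). The authors' deposited table gave Il4ra -0.46 ± 0.16 (SE, adjusted p = 0.124), Il7r -0.40 ± 0.17 (0.256) and Ifngr1 -0.37 ± 0.20 (0.416), none past the test. The authors' deposited table gave the prolactin receptor Prlr 2.90 ± 0.93 (SE, adjusted p = 0.108), with a baseMean of only 37.0. The median of the receptors was -0.10 as deposited and turned to 0.15 after centring, with 24 of 36 positive. Of 13 ligands of these receptors made by lymphocytes, 1 fell and 0 rose past the test, beside the same 0.099% and 0.453% of all tested genes. Their median was -0.11 as deposited and 0.14 after centring, with 9 of 13 then positive. The gene that fell was Csf2, the gene of GM-CSF, at -0.62 ± 0.16 (SE, adjusted p = 0.0335) in the authors' deposited table. Centred, Csf2 stood at -0.37 (adjusted p = 0.242), and its call was also lost with every gene adjusted for (0.0675). It held with genes whose baseMean reached 50 (0.0413) and among protein-coding genes (0.0409). Il6, whose receptor is the best known target of SOCS3, stood at 0.60 ± 0.37 (SE, adjusted p = 0.483), Il4 at -0.55 ± 0.37 (0.533) and Il5 at -0.11 ± 0.16 (0.798) in the authors' deposited table. Centring made the value of Il5 positive.

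The lists of STAT5 and cytokine targets and of STAT3 targets gave 1 call. Whether a STAT induces each listed gene in these cells was not tested. Of 26 genes listed as STAT5 and cytokine targets, 1 fell and 0 rose past the test. Over all tested genes, 0.099% were called lower and 0.453% higher. The median of these 26 genes was -0.12 as deposited and turned to 0.13 after centring, with 17 of 26 positive. The one that fell was Gadd45b, a stress and MAP kinase regulator, at -0.48 ± 0.13 (SE, adjusted p = 0.0467) in the authors' deposited table. Centring removed this call (-0.23, adjusted p = 0.460). So did adjusting for every gene (0.0942), for genes whose baseMean reached 50 (0.0636) and for protein-coding genes only (0.0557). The cyclins Ccnd3 and Ccnd2 stood at -0.55 ± 0.22 (SE, adjusted p = 0.200) and -0.44 ± 0.18 (0.227), and Id2, an ILC lineage factor, at -0.07 ± 0.14 (0.872), in the authors' deposited table. Centring made the value of Id2 positive. None of 12 STAT3 targets passed, with a median of -0.07 that turned to 0.18 after centring, 8 of 12 then being positive. Within them Ier3, a stress-induced survival gene, stood at 0.73 ± 0.32 (SE, adjusted p = 0.261), Myc at -0.35 ± 0.16 (0.303), Hif1a at -0.37 ± 0.18 (0.334), Fos at 0.14 ± 0.14 (0.701) and Junb at -0.12 ± 0.13 (0.738) in the authors' deposited table, and centring made that of Junb positive.

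**Figure D5:**
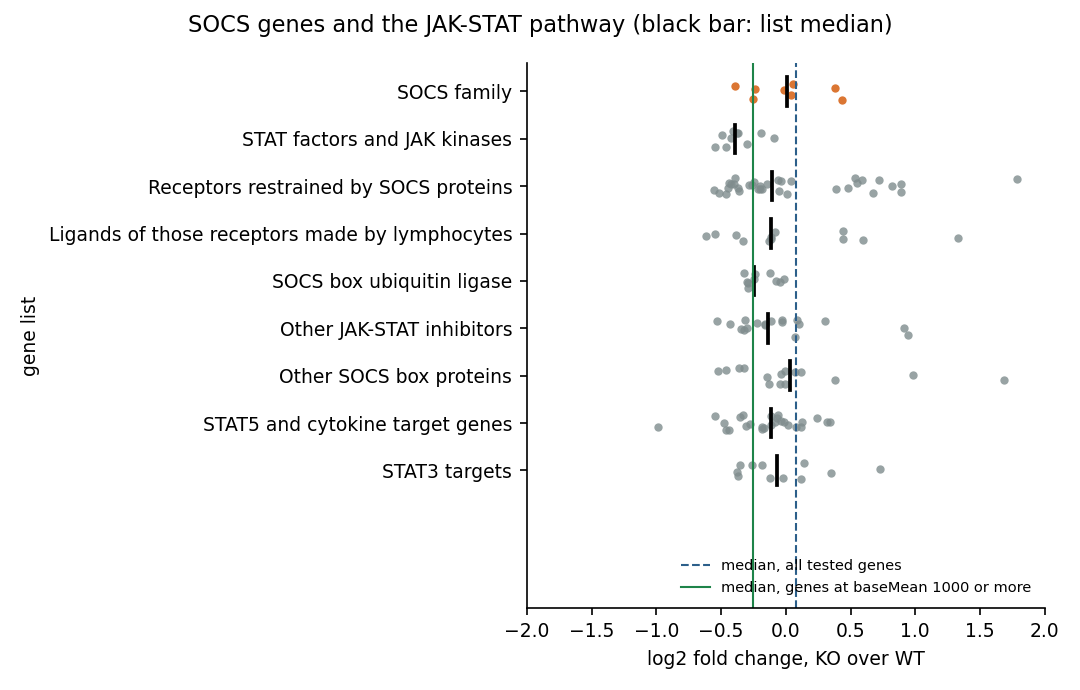
Log2 fold change, KO over WT, of each tested gene in the SOCS family (top, orange) and in 8 lists of the JAK-STAT pathway (grey), with list medians as black bars and the medians of all tested genes (dashed) and of abundant genes (green). The SOCS family median is 0.01, the STAT and JAK median -0.39, and 9 genes beyond 2 on either side are not drawn.

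Other genes listed as inhibitors of the pathway gave no call. Of these 18, which include phosphatases, PIAS proteins and adaptors, 0 passed. Their median of -0.14 turned to 0.11 after centring, 12 of 18 then being positive. Ptpn11, the phosphatase SHP2, stood at -0.53 ± 0.27 (SE, adjusted p = 0.363), Ptprc, the phosphatase CD45, at -0.32 ± 0.15 (0.313), Pias1 at -0.35 ± 0.19 (0.427) and Ptpn2, which dephosphorylates JAK1 and JAK3, at -0.22 ± 0.18 (0.636) in the authors' deposited table, and centring made that of Ptpn2 positive. Of 27 other genes with a SOCS box, 20 had an adjusted p and none passed, with a median of 0.03 as deposited and 0.29 after centring. The authors' deposited table gave Wsb1, the most abundant of them, -0.04 ± 0.15 (SE, adjusted p = 0.947) and Asb2 -0.46 ± 0.20 (0.240), and centring made the value of Wsb1 positive. The smallest p values were those of Spsb4 (7.15 ± 2.18, adjusted p = 0.0852), Asb17 (6.70 ± 2.45, 0.161) and Asb4 (3.97 ± 1.47, 0.167) in the authors' deposited table. Their baseMean was 10.5, 7.69 and 19.5, and log2 values at so low a level come from the fit and measure no fold.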

How the data were processed

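Per the labels' protocols, RNA of the sorted ILC2s was taken up in Trizol, amplified as full-length cDNA (SMART-Seq HT) and made into libraries with a TruePrep kit. The submitters' processing notes name HISAT2, Cufflinks and mm10, with no roles, and the counter is not given in the sources used here. For each gene the authors deposited a baseMean (a signal, the mean normalized count) and, on the log2 scale, a fold change and standard error. A test statistic (score) and both a raw and an adjusted p-value were deposited too, and the authors' headings, per the file headers, are those of DESeq2 output. Another 8 columns hold values of single libraries under codes found in no sample label. They entered no result, although values of some genes were displayed on first inspection, and the planned edgeR fit gave way to the authors' test.

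The sign was turned to KO over WT, and with the opposite reading all directions turn. The deposited adjusted p-values match a Benjamini-Hochberg adjustment over 19193 genes (baseMean 6.71 or more) within 3.96e-05, and the other 19504 genes have none. Genotype means came from baseMean and fold change, with both genotypes given equal weight. The 95% intervals are normal, from the standard error. Sizes needed for a call are the smallest statistic called, 3.64, times the standard error. Centring subtracted the median log2 value of genes whose baseMean was 1000 or more. P-values come from the authors' model on 2 pools per genotype and do not measure the spread between single mice. Adjustment and centring were tested on simulated data with the same offset for every gene. A shift that depends on abundance, as found here, was not simulated. Levels were divided by exonic length in GENCODE M21. Members and lists were chosen with earlier results of these data known. Named are the 8 members, Nrp1 and, per list, genes past the threshold, the 2 most abundant and the 3 of lowest p, but for other cells a few examples. Cul5 and Rnf7 are named in addition. A gene of the pathway lists, and a list that turns on it, are not reported here. Elob and Eloc were found under the older names Tceb2 and Tceb1. Python 3.11.15, pandas 2.3.3 and scipy 1.17.1 were used.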

Additional observations from a re-analysis of the deposited data

How the results depend on the processing

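No SOCS gene was called when every gene with a p was adjusted for, when only genes whose baseMean reached 50 were, or when only protein-coding genes were, and 1 (Socs3) was called when values were centred on abundant genes, which adds 0.25 to each log2 value. As deposited, 106 genes were called, 87 higher and 19 lower in KO. The same 3 counts were 23, 21 and 2 with every gene adjusted for, 35, 22 and 13 above a baseMean of 50, 56, 39 and 17 among protein-coding genes, 227, 225 and 2 after centring, and 306, 266 and 40 at an adjusted p under 0.1. Genes called in the pathway lists numbered 3 as deposited, and 0, 1, 2 and 0 under the first 4 of these settings. Filters set how many genes enter the adjustment, and the cause was not tested beyond that. With the longest transcript as the length, 4 of 8 members kept their place in the order of levels. Centring turned the sign of Cish (0.0121), Socs2 (6.72e-05), Socs6 (0.234), Id2 (0.183), Il5 (0.137), Junb (0.128), Ptpn2 (0.0316), Wsb1 (0.214), Rora (0.0953) and Vwf (0.177), none of them called. The span of the members' log2 values, 0.82, is the same in these settings by construction. Alternatives on values per library (another scaling, a filter on counts, leaving out a library, another pseudocount) were not run. No paired analysis was possible because the columns of single libraries carry no replicate number or sample name. Precision is lowest for the scarcest member, Socs7, which would have needed a 3.74-fold change for a call under the authors' scaling.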
